A study of Citrus sinensis with 6 samples.

Results

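A set of probe sets on the Citrus Genome array, named after proteins of the phosphate starvation response, was followed through self-pruning, the shedding of the shoot tip, in sweet orange. It holds 7 of the 30171 citrus probe sets on the array. The 7 members were chosen because their homologue names belong to the response and because their signals were already known to be higher at stages 2 and 3 than at stage 1, so these differences from stage 1 are given as a description with no test. The names are those of the best homologues given by the study, and none of the 7 was lost to a filter.

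The RNA came from spring shoot tips, including the abscission zone, of sweet orange (Citrus sinensis) trees of the cultivar Cara Cara Navel Orange grown in natural conditions. Shoot tips were taken at stage 1 (3 days before self-pruning), stage 2 (the beginning of self-pruning) and stage 3 (7 days after self-pruning), with 2 arrays per stage. No treatment was applied and no phosphate level was part of the design, so the stages differ in time and in the state of the tip together. The labels call the arrays of a stage biological replicates and the tissue shoot meristems. The methods describe sampling from separate groups of trees for replicates. Which trees stand behind each array is not given in the sources used here.

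Plants short of phosphate switch on a set of genes that save, recycle and take up phosphate. In Arabidopsis and rice, transcription factors of the PHR family drive these genes, and SPX proteins, which bind inositol pyrophosphates, hold the factors back when phosphate is plentiful, while several SPX genes are themselves targets of the same factors. Membrane phospholipids are broken down in this response and replaced by galactolipids and sulfolipids, which contain no phosphate, and phosphatases and ribonucleases release phosphate from other compounds.

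All 7 members were higher at stage 2 than at stage 1 and higher again at stage 3. Their log2 differences of stage 2 minus stage 1 lay between 1.60 and 2.93, with a median of 2.47, and those of stage 3 minus stage 1 lay between 3.35 and 4.83, with a median of 3.97. Over all citrus probe sets the medians were 0.01 and -0.04, and the 95th percentiles were 0.46 and 1.34. The signals are log2 values from RMA, a method that summarises the probes of a probe set. Since probes differ in brightness, signal levels were not used to rank genes by RNA amount. For the same reason, comparisons with control probe sets are only a rough guide to background. More cells of a type and more RNA per cell cannot be told apart in such bulk tissue.

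**Figure D1:**
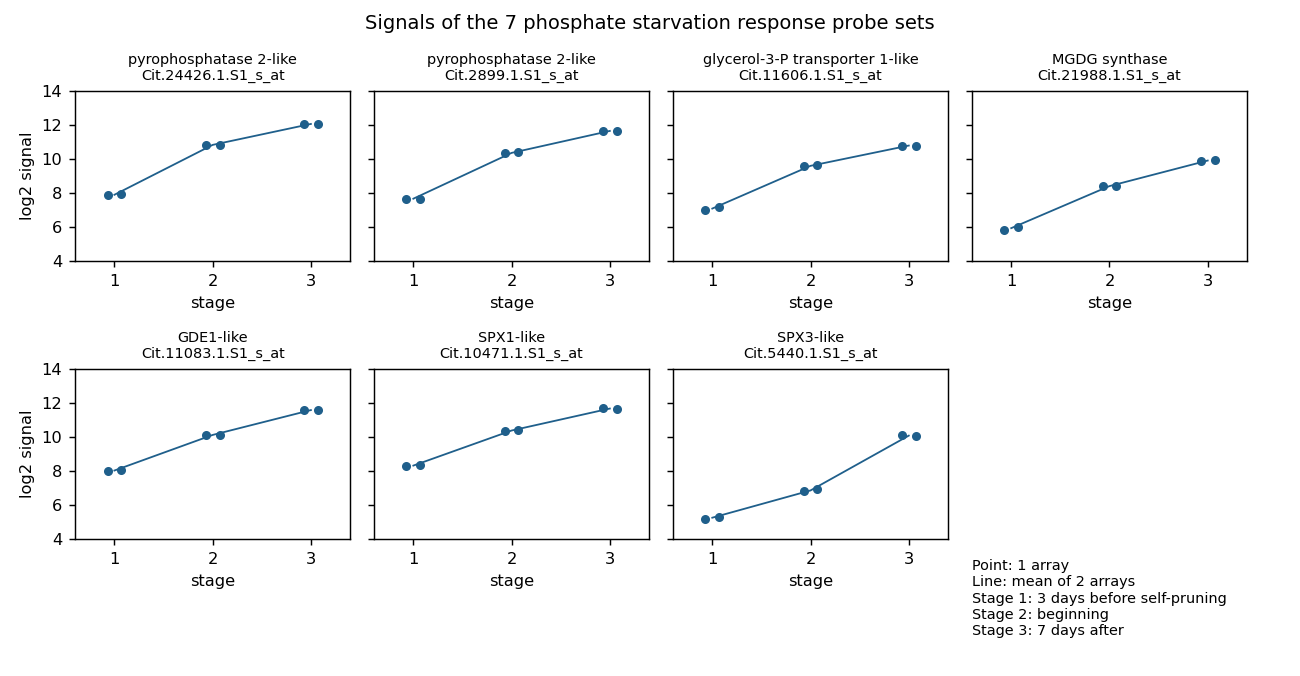
Log2 signal (vertical axis) of the 7 members at stages 1, 2 and 3 (horizontal axis). Each point is 1 array and each line joins the means of 2 arrays. In all 7 panels the stage 2 arrays sit above the stage 1 arrays and the stage 3 arrays above both. The step between stages 2 and 3 is 3.23 for SPX3-like Cit.5440.1.S1_s_at and at most 1.5 for the other 6.

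The SPX proteins, the phosphate sensors of the response, are represented by 2 members. SPX domain-containing protein 1-like (Cit.10471.1.S1_s_at) had log2 signals of 8.30 and 8.32 at stage 1, 10.37 and 10.38 at stage 2, and 11.67 and 11.64 at stage 3. The 3 stages did not overlap, and the arrays of a stage lay far closer to each other than to those of the next stage. Its difference was 2.06 ± 0.026 (SE) for stage 2 minus stage 1, or 4.18-fold, and 3.35 for stage 3 minus stage 1, or 10.2-fold.

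SPX domain-containing protein 3-like (Cit.5440.1.S1_s_at) had log2 signals of 5.17 and 5.32 at stage 1, 6.79 and 6.91 at stage 2, and 10.08 and 10.07 at stage 3. Its stage 1 signals were dim: the 60 reporter control probe sets, which match no citrus gene, reached 5.67. The measured difference of stage 2 minus stage 1 was 1.60 ± 0.068 (SE), and that of stage 3 minus stage 1 was 4.83, but stage 1 lay within the range of these controls. With each stage 1 array set to the brightest reporter signal, 5.67, SPX3-like was at least 2.26-fold higher at stage 2 and at least 21.2-fold higher at stage 3 than at stage 1.

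Membrane lipid turnover is represented by 3 members. Glycerophosphodiester phosphodiesterase GDE1-like (Cit.11083.1.S1_s_at), of a family that releases glycerol-3-phosphate from the headgroups of deacylated phospholipids, had log2 signals of 7.99 and 8.04 at stage 1, 10.10 and 10.13 at stage 2, and 11.56 and 11.57 at stage 3. The stages did not overlap, and the differences from stage 1 were 2.10 ± 0.032 (SE) at stage 2 and 3.55 at stage 3, or 4.27-fold and 11.7-fold.

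Glycerol-3-phosphate transporter 1-like (Cit.11606.1.S1_s_at), of a family whose Arabidopsis members include genes induced by low phosphate, had log2 signals of 7.01 and 7.18 at stage 1, 9.57 and 9.63 at stage 2, and 10.79 and 10.79 at stage 3. Again no stage overlapped another, and the widest gap between arrays of a stage was at stage 1. The differences from stage 1 were 2.51 ± 0.064 (SE) at stage 2, or 5.69-fold, and 3.70 at stage 3, or 13-fold.

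Monogalactosyldiacylglycerol synthase (Cit.21988.1.S1_s_at) makes the galactolipid that is also the precursor of digalactosyldiacylglycerol, the lipid that stands in for phospholipids when phosphate is short. Its log2 signals were 5.85 and 6.03 at stage 1, 8.41 and 8.42 at stage 2, and 9.90 and 9.92 at stage 3. The stages did not overlap, and stage 1 was close to the brightest reporter control. The differences from stage 1 were 2.47 ± 0.066 (SE) at stage 2, or 5.54-fold, and 3.97 at stage 3, or 15.7-fold.

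The remaining 2 members share the name inorganic pyrophosphatase 2-like. Arabidopsis proteins that carry this name in databases act on phosphocholine and phosphoethanolamine, the headgroups of phospholipids, and are induced by low phosphate. Cit.24426.1.S1_s_at had log2 signals of 7.87 and 7.94 at stage 1, 10.83 and 10.83 at stage 2, and 12.06 and 12.06 at stage 3. Its difference of stage 2 minus stage 1, 2.93 ± 0.033 (SE) or 7.62-fold, ranked 1 among all 30171 probe sets, and that of stage 3 minus stage 1 was 4.16, or 17.8-fold.

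Cit.2899.1.S1_s_at, the other probe set of that name, had log2 signals of 7.66 and 7.68 at stage 1, 10.34 and 10.39 at stage 2, and 11.64 and 11.66 at stage 3. Its differences from stage 1 were 2.69 ± 0.030 (SE) at stage 2, or 6.46-fold, and 3.98 at stage 3, or 15.8-fold. The pair thus kept a like profile over the 6 arrays with no overlap between stages, and whether the probe sets read 1 gene or several is not known here.

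Among the rises at stage 2 over stage 1, the members held ranks 1, 3, 5, 8, 18, 20 and 49 of 30171, and 6 of the 7 were among the 22 probe sets at least 4-fold higher. Among the rises at stage 3 over stage 1 the same members held ranks between 15 and 128, and all 7 were among the 653 probe sets at least 4-fold higher. These ranks describe the choice of the members. Of all citrus probe sets, 20.2% were higher and 21.5% lower at stage 2 than at stage 1 at a Benjamini-Hochberg adjusted p under 0.05 in limma, and 29.9% were higher and 35.9% lower at stage 3 than at stage 1. With each array centred on its median, the calls of stage 2 against stage 1 became 7145 higher and 4626 lower, in place of 6080 and 6493.

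The choice had no clean edge. SPX3-like, at 1.60 for stage 2 minus stage 1, was taken, while probe sets with larger differences were not: another inorganic pyrophosphatase 2-like probe set (Cit.2900.1.S1_at) was at 2.26, a glycerol-3-phosphate transporter 1 (Cit.34850.1.S1_s_at) at 2.21 and a cysteine and histidine-rich protein (Cit.29751.1.S1_at) at 2.27.

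The comparison of stage 3 with stage 2 uses the same arrays as the choice of the members, so it too is a description with no test. All 7 members were higher at stage 3 than at stage 2. Of all citrus probe sets, 29.1% were higher and 36.5% lower in this comparison at an adjusted p under 0.05 in limma. The members' differences lay between 1.19 and 3.23 with a median of 1.29, beside a median of -0.05 over all citrus probe sets. In both arrays of stage 3, every member had a higher signal than in both arrays of stage 2, and the same held between stages 2 and 1. Of all citrus probe sets, 36.1% were higher with no overlap between arrays at stage 3 than at stage 2, 35.8% at stage 2 than at stage 1 and 37.6% at stage 3 than at stage 1.

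SPX3-like was 3.23 ± 0.068 (SE), or 9.35-fold, higher at stage 3 than at stage 2, and was the only member among the 565 probe sets at least 4-fold higher in this comparison. Its signals at both of these stages lay above the reporter controls. Monogalactosyldiacylglycerol synthase followed with 1.5 ± 0.066, or 2.83-fold, and GDE1-like with 1.46 ± 0.032, or 2.74-fold. SPX1-like, the other SPX member, was 1.28 ± 0.026, or 2.44-fold, higher.

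The other 3 members had similar late differences. The inorganic pyrophosphatase 2-like probe sets were 1.29 ± 0.030 (Cit.2899.1.S1_s_at) and 1.23 ± 0.033 (Cit.24426.1.S1_s_at) higher at stage 3 than at stage 2. Glycerol-3-phosphate transporter 1-like was 1.19 ± 0.064, or 2.28-fold, higher, the smallest late difference of the 7. By rank of this difference among 30171 probe sets the members stood lower than in the early comparison, at 130 for SPX3-like and between 1099 and 1654 for the other 6.

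For the 6 members other than SPX3-like, the early share of the difference could be computed. This share is the difference of stage 2 minus stage 1 as a percentage of that of stage 3 minus stage 1, on the log2 scale, with the range over all pairings of single arrays in parentheses. It was 70.5% (70.2 to 70.8%) and 67.6% (66.7 to 68.4%) for the inorganic pyrophosphatase 2-like Cit.24426.1.S1_s_at and Cit.2899.1.S1_s_at, and 67.8% (66.3 to 69.3%) for glycerol-3-phosphate transporter 1-like.

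The lipid enzymes and SPX1-like lay somewhat lower. The share was 62.2% (61.0 to 63.4%) for monogalactosyldiacylglycerol synthase, 61.6% (61.1 to 62.2%) for SPX1-like and 59.0% (58.2 to 59.8%) for GDE1-like. No share is given for SPX3-like, whose stage 1 signals were not above the reporter controls. The share was computed from the values that chose the members and is given without a test.

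**Figure D2:**
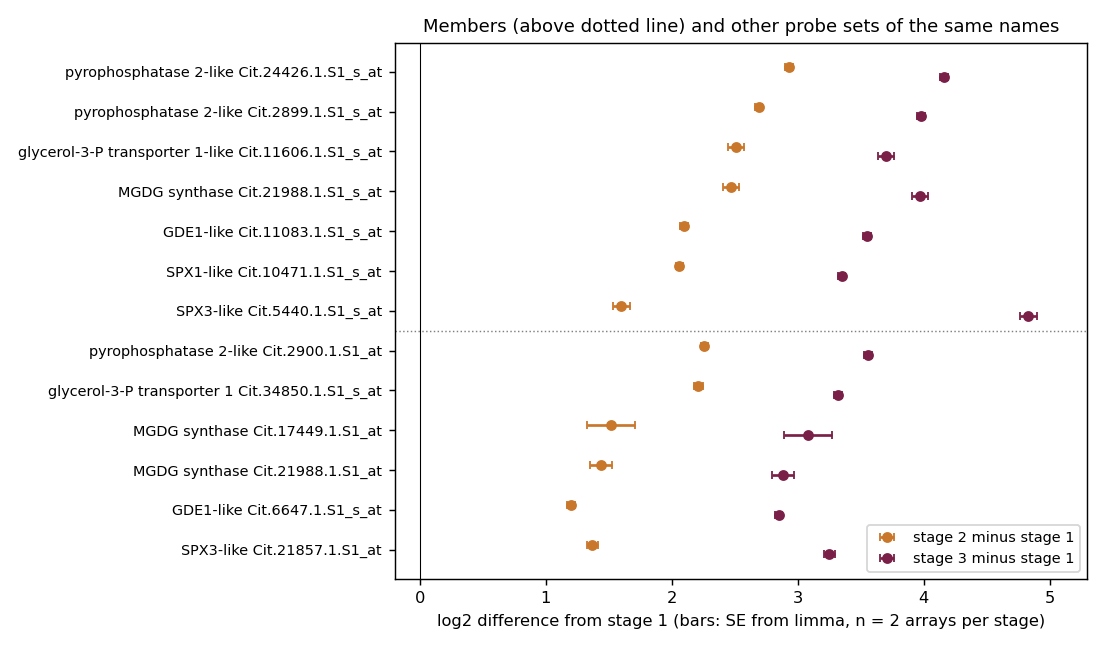
Log2 difference from stage 1 (horizontal axis) at stage 2 and at stage 3, with the SE from limma (n = 2 arrays per stage), for the 7 members above the dotted line and 6 other probe sets of the same homologue names below it. All 13 probe sets lie right of 0 at both stages, and the points of SPX3-like Cit.5440.1.S1_s_at (1.60 and 4.83) and of Cit.17449.1.S1_at rest on stage 1 signals within the reporter controls.

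A further 6 probe sets carry the same homologue names as the members in the study's annotation, which covered only genes that had passed its thresholds on these arrays, so their direction is not independent evidence. All 6 were higher in each of the 3 comparisons, with a median difference of 1.48 for stage 2 minus stage 1, 3.17 for stage 3 minus stage 1 and 1.5 for stage 3 minus stage 2. Their arrays did not overlap between stages. Of all citrus probe sets, 35.8 to 37.6% were higher with no overlap in each comparison taken alone. The share with this pattern in all 3 comparisons together was not computed.

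Among these, the third inorganic pyrophosphatase 2-like probe set (Cit.2900.1.S1_at) had log2 signals of 8.05 and 8.08 at stage 1, 10.30 and 10.35 at stage 2, and 11.63 and 11.62 at stage 3, close to the profiles of its namesakes. Glycerol-3-phosphate transporter 1 (Cit.34850.1.S1_s_at) had 8.52 and 8.47 at stage 1, 10.73 and 10.68 at stage 2, and 11.82 and 11.80 at stage 3. Their early shares were 63.4% and 66.5%.

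The second SPX3-like probe set (Cit.21857.1.S1_at) had log2 signals of 6.54 and 6.45 at stage 1, 7.86 and 7.87 at stage 2, and 9.78 and 9.70 at stage 3. It had the larger step late, with 42.3% (40.8 to 43.7%) of the rise reached at stage 2, and its stage 1 signals lay above the reporter controls. The second GDE1-like probe set (Cit.6647.1.S1_s_at) had 7.19 and 7.22 at stage 1, 8.39 and 8.42 at stage 2, and 10.05 and 10.05 at stage 3, an early share of 42.2% against 59.0% for the member.

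The 2 further monogalactosyldiacylglycerol synthase probe sets were dimmer. Cit.17449.1.S1_at had 4.52 and 4.86 at stage 1, 6.0 and 6.43 at stage 2, and 7.72 and 7.83 at stage 3. Its stage 1 signals lay within the reporter controls, and against the brightest of these it was at least 4.3-fold higher at stage 3 than at stage 1. Cit.21988.1.S1_at, made against the same target sequence as the member, had 5.73 and 5.92 at stage 1, 7.18 and 7.35 at stage 2, and 8.70 and 8.72 at stage 3. The early share of Cit.21988.1.S1_at was 49.9% (45.1 to 54.4%), against 62.2% for the member.

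All 7 members are probe sets whose identifiers end in _s_at, which in the manufacturer's naming marks probes shared by several transcripts, so signals of near-identical gene copies cannot be told apart. This type makes up 23.6% of the citrus probe sets and 2 of the 6 namesakes. Probe sets of this type rose in 27.6% of cases at stage 2 over stage 1 and in 39.1% at stage 3 over stage 2, and those ending in plain _at in 17.6% and 25.9%.

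For 3 target sequences of the members and their namesakes the array holds both types. For the target of the member Cit.24426.1.S1_s_at, whose difference of stage 3 minus stage 1 was 4.16, the probe set Cit.24426.1.S1_at had log2 signals of 4.10 and 4.11 at stage 1, 4.43 and 3.95 at stage 2, and 4.75 and 4.27 at stage 3. These lay within the range of the reporter controls, and the difference of 0.41 did not pass the test (limma, adjusted p = 0.178). The same held for Cit.6647.1.S1_at, with 4.48 and 4.63 at stage 1, 4.68 and 4.97 at stage 2, and 4.55 and 4.8 at stage 3 (stage 3 minus stage 1: 0.12, adjusted p = 0.494 in limma), against 2.85 for Cit.6647.1.S1_s_at.

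At the monogalactosyldiacylglycerol synthase target both types were higher at stage 3 than at stage 1. The difference of stage 3 minus stage 1 was 3.97 for the member Cit.21988.1.S1_s_at and 2.88 for Cit.21988.1.S1_at. The difference between probe sets of 1 target was not tested.

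**Figure D3:**
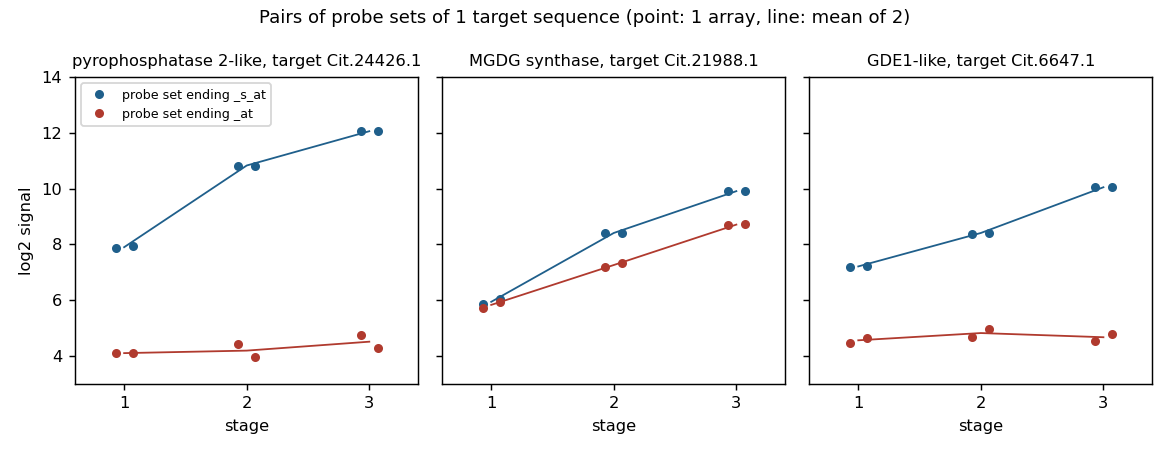
Log2 signal (vertical axis) by stage (horizontal axis) for 3 target sequences with a probe set ending in _s_at and one ending in _at. Points are arrays and lines join means of 2 arrays. Both types are higher at stage 3 for the target Cit.21988.1, while for Cit.24426.1 and Cit.6647.1 the probe set ending in _at stays between 3.95 and 4.97.

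Beside these dim probe sets, the array's own annotation gives 2 more the same best protein match as a probe set named by the study. Cit.6978.1.S1_at rose by 0.39 at stage 3 over stage 1 and Cit.40257.1.S1_at, a phosphate transporter name, by 0.57 (limma, adjusted p = 0.025 and 0.000638), far below the rises of the members. Neither passed the test at stage 2 over stage 1, where the differences were -0.13 and -0.14. All signals of Cit.40257.1.S1_at, 4.15 to 4.94, lay within the range of the reporter controls, so its rise was a change at background level.

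The study's annotation tied 9 more probe sets to phosphate starvation by name or function, again among genes picked on these arrays. Of these, 6 were higher and 2 lower at stage 2 than at stage 1 (20.2% and 21.5% of all citrus probe sets). At stage 3, 8 were higher and 1 lower than at stage 1 (29.9% and 35.9% of all). Relative to stage 2, 7 were higher and 1 lower at stage 3 (29.1% and 36.5% of all). Calls of the 9 probe sets are no independent evidence of direction. Their profiles were of several kinds.

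The cysteine and histidine-rich protein (Cit.29751.1.S1_at) had log2 signals of 5.01 and 4.95 at stage 1, 7.17 and 7.33 at stage 2, and 8.54 and 8.38 at stage 3. Its stage 1 signals lay within the reporter controls, and against the brightest of these it was at least 2.99-fold higher at stage 2 and at least 6.9-fold higher at stage 3. The probe sets of the hypothetical protein CICLE_v10009511mg reached most of their rise at stage 2: Cit.13512.1.S1_at differed from stage 1 by 1.66 at stage 2 and 1.81 at stage 3, and Cit.21047.1.S1_s_at by 1.79 and 1.88. For the last, stage 3 minus stage 2 was 0.08 (limma, adjusted p = 0.0957).

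In 3 of the 9, most of the measured difference came late. The inorganic phosphate transporter (Cit.37918.1.S1_at), named for carrying phosphate across membranes, had 4.77 and 4.79 at stage 1, 4.90 and 5.05 at stage 2, and 6.77 and 6.72 at stage 3, so that its stage 1 and stage 2 signals were in the range of the reporter controls. Against the brightest reporter control it was at least 2.11-fold higher at stage 3 than at stage 1, while stage 2 minus stage 1 was 0.20 (limma, adjusted p = 0.0502). Phosphoenolpyruvate carboxylase kinase, which activates an enzyme of a glycolytic bypass that frees phosphate, rose by 0.76 at stage 2 over stage 1 and by 2.37 at stage 3 over stage 1 in Cit.5874.1.S1_s_at, and by 0.74 and 2.35 in Cit.5875.1.S1_at.

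The remaining 3 ran differently. Phospholipase D (Cit.7311.1.S1_at), which cleaves the headgroup from phospholipids, had stage 1 signals of 4.68 and 4.80, within the reporter controls, and was at least 2.14-fold higher at stage 2 than at stage 1. It fell by 0.31 at stage 3 relative to stage 2 (limma, adjusted p = 0.0162), a call lost without either stage 3 array. Ribonuclease T2 (Cit.4047.1.S1_at), of a family that includes enzymes salvaging phosphate from RNA, fell by 1.84 at stage 2 and was 1.68 above stage 1 at stage 3. The transcription factor MYB21-like (Cit.6376.1.S1_at) fell by 2.21 at stage 2, and its stage 3 minus stage 1 difference was -0.23 (limma, adjusted p = 0.0146), a call also lost without either stage 3 array.

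The array's shortened gene names gave 45 probe sets outside the study's annotation, Cit.40257.1.S1_at among them, that are named after enzymes, transporters and SPX proteins of the pathway. These were matched by name without using their values. Name matches in the study's annotation were left out, however, and that annotation held only genes passing its thresholds on these arrays. The 45 thus lack some matches with large rises, such as Cit.21857.1.S1_at (3.25 at stage 3 over stage 1). Their counts and medians are therefore not those of all name matches. For stage 2 over stage 1 the counts were 17 rises and 6 falls, or 37.8% and 13.3% (20.2% and 21.5% of all citrus probe sets), and the median difference was 0.10. There were 23 rises and 12 falls at stage 3 over stage 1, or 51.1% and 26.7% (29.9% and 35.9% of all citrus probe sets), and the median was 0.27. At stage 3 over stage 2 there were 18 rises and 16 falls (40.0% and 35.6%, against 29.1% and 36.5% of all citrus probe sets) around a median of -0.01. As measured, none was at least 4-fold higher in any comparison, and the largest difference from stage 1 was 1.62, below the 3.35 of the lowest member. It belonged to Cit.24350.1.S1_at, whose stage 1 signals lay within the reporter controls. The study's thresholds included a 4-fold change, so this gap follows in part from leaving its annotated genes out. Without moderation of the variances 11 rose at stage 2, and with a trended prior 10 fell.

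Of the 15 acid phosphatases, secreted or vacuolar enzymes that free phosphate from organic compounds, 8 rose and 2 fell at stage 2 over stage 1. These were 53.3% and 13.3% (20.2% and 21.5% of all citrus probe sets). At stage 3 over stage 1, 8 rose and 5 fell, or 53.3% and 33.3% (29.9% and 35.9% of all). The purple acid phosphatase Cit.8231.1.S1_s_at rose by 0.84 at stage 2 and 1.5 at stage 3, Cit.24042.1.S1_s_at by 0.65 and 0.76, and Cit.16187.1.S1_at by 0.26 and 0.94. The acid phosphatase Cit.22649.1.S1_s_at fell by 0.60 and Cit.22649.1.S1_x_at by 0.84 at stage 3 relative to stage 1.

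Outside the annotated lists 2 SPX names remained, and they went apart. Cit.18480.1.S1_at was 1.04 higher at stage 3 than at stage 1, after -0.17 at stage 2, whereas Cit.16236.1.S1_at was at -0.87. Of the 8 phosphate transporter and translocator names, 5 rose and 2 fell at stage 3 over stage 1 (29.9% and 35.9% of all citrus probe sets). Cit.28009.1.S1_at and Cit.28009.1.S1_s_at, of 1 target, rose by 1.28 and 1.24. The stage 1 signals of Cit.28009.1.S1_at, 5.22 and 5.43, lay within the reporter controls. Cit.39990.1.S1_s_at fell by 0.57 and Cit.35482.1.S1_s_at fell by 0.45.

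Among lipid enzymes, the only monogalactosyldiacylglycerol synthase name outside the annotated lists (Cit.34626.1.S1_at) fell by 0.82 at stage 3 relative to stage 1, beside the member's 3.97. Of 4 digalactosyldiacylglycerol synthases, which add the next galactose, Cit.6606.1.S1_at rose by 0.98 at stage 2 and 0.63 at stage 3, Cit.7437.1.S1_at and Cit.30353.1.S1_at rose by 0.49 and 0.31 at stage 3, and Cit.31026.1.S1_at fell by 0.66. The phospholipase names held 4 rises and no fall at stage 3 over stage 1 among 8 (29.9% and 35.9% of all citrus probe sets). The largest rises were 1.62 for Cit.24350.1.S1_at, 0.64 for Cit.30635.1.S1_s_at and 0.44 for Cit.26704.1.S1_at. For Cit.24350.1.S1_at, the signals at stage 1 (4.57 and 4.92) and stage 2 (5.43 and 5.51) lay within the reporter controls. Neither of the 2 sulfolipid synthesis names, nor the 1 further glycerophosphodiester phosphodiesterase name, passed the test at stage 3 over stage 1.

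The 4 S-like ribonuclease names, enzymes that in other plants release phosphate from RNA, were split. At stage 3 over stage 1, Cit.7811.1.S1_at rose by 1.1 and Cit.29506.1.S1_s_at by 0.95, while Cit.13452.1.S1_at fell by 0.43 and Cit.13453.1.S1_s_at by 0.39. All signals of Cit.13452.1.S1_at, 4.60 to 5.56, lay within the range of the reporter controls.

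**Figure D4:**
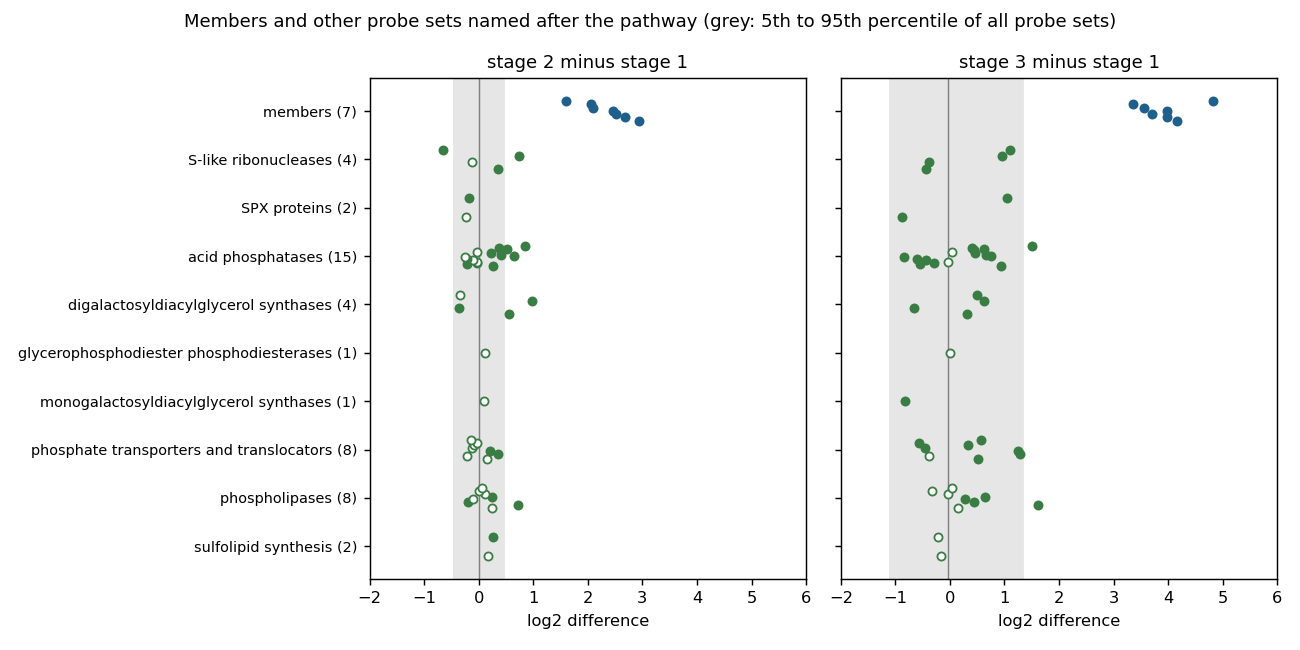
Log2 difference of stage 2 minus stage 1 (left) and stage 3 minus stage 1 (right) for the 7 members and the 45 other probe sets named after the pathway, each point a probe set. Filled green points passed an adjusted p under 0.05 in limma, open ones did not, members are shown without a test, and grey marks the 5th to 95th percentiles of all citrus probe sets. No pathway probe set outside the annotated lists lies above 1.62, the measured difference of Cit.24350.1.S1_at, whose stage 1 signals lay within the reporter controls. The members start at 1.60 on the left and 3.35 on the right. The annotated lists, left out of the 45, hold genes picked for large changes on these arrays, so this gap follows in part from the choice.

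By likeness of profile, measured as the root mean square distance over 6 arrays from the members' mean after centring on stage 1, the nearest probe sets outside the lists were Cit.1868.1.S1_s_at (0.111), Cit.30672.1.S1_at (0.119), Cit.28117.1.S1_s_at (0.122), Cit.8587.1.S1_s_at (0.15) and Cit.30672.1.S1_x_at (0.185). The members' mean stood 2.32 and 2.36 above stage 1 at stage 2 and 3.93 and 3.93 above it at stage 3, and the members' own distances ran from 0.0835 for monogalactosyldiacylglycerol synthase to 0.669 for SPX3-like. Only Cit.28117.1.S1_s_at, an aspartyl protease family protein, has a homologue name in the study's annotation. Cit.1868.1.S1_s_at, the nearest, had log2 signals of 8.59 and 8.56 at stage 1, 11.09 and 11.06 at stage 2, and 12.44 and 12.43 at stage 3.

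Across the series, array medians lay between 7.3 and 7.39, replicate arrays correlated at 0.999 across probe sets, and no array stood apart. The 23 control probe sets of random sequence had log2 signals of 7.07 to 10.49, with a median of 7.90, so that the stage 1 signals of all 7 members lay below the brightest of these controls. At stage 2 only the member Cit.24426.1.S1_s_at (10.83 and 10.83) lay above it, and SPX3-like (6.79 and 6.91) lay below the dimmest. At stage 3 monogalactosyldiacylglycerol synthase (9.90 and 9.92) and SPX3-like (10.08 and 10.07) were still below the brightest. The difference between 3′ and 5′ actin probe sets, a measure of RNA integrity, was 1.87 and 1.94 at stage 1, 1.89 and 1.93 at stage 2, and 1.62 and 1.66 at stage 3. Of marker lists by name, 9 of 17 green leaf probe sets rose and 1 fell at stage 2 over stage 1 (20.2% and 21.5% of all citrus probe sets). At stage 3 relative to stage 1, 2 rose and 9 fell (29.9% and 35.9% of all), with mean log2 signals of 9.08 to 9.13 at stage 1, 9.38 to 9.39 at stage 2 and 8.91 to 8.98 at stage 3. Of 21 senescence names, 12 rose and 5 fell at stage 3 relative to stage 1 (29.9% and 35.9% of all). Their mean signal was 9.29 to 9.30 at stage 1, 9.40 to 9.41 at stage 2 and 9.53 to 9.54 at stage 3.

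Of the 8 shoot meristem and young leaf names, 3 rose and 4 fell at stage 3 relative to stage 1 (29.9% and 35.9% of all citrus probe sets). Their means were 8.03 to 8.04 at stage 1, 7.87 to 7.89 at stage 2 and 7.46 to 7.48 at stage 3. The labelled tissue was checked on both probe sets named SHOOTMERISTEMLESS, a defining meristem gene. Both lay above the reporter controls at every stage, and at stages 1 and 2 below the 7.90 median of the random-sequence controls. Cit.16313.1.S1_s_at had 7.62 and 7.70 at stage 1, 7.09 and 7.23 at stage 2, and 8.43 and 8.47 at stage 3. Cit.16313.1.S1_at was dimmer, with 6.32 and 6.53 at stage 2, below the dimmest random-sequence control, and 7.98 and 8.08 at stage 3. Their differences of stage 3 minus stage 1 were 0.79 and 0.99, and that of the KNOTTED name Cit.10480.1.S1_at was 0.7. These rises do not stand for the list, whose mean fell and whose lowest difference was -3.32. Of 14 vascular names, 7 rose and 3 fell at stage 3 relative to stage 1 (29.9% and 35.9% of all). Their means were 6.83 to 6.84, 6.88 to 6.96 and 6.74 at stages 1, 2 and 3. The part of tissue makeup and RNA integrity in the rises of the members was not tested.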

How the data were processed

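Total RNA was labelled with biotin and hybridised to Affymetrix Citrus Genome arrays. The deposited values are log2 signals, which the authors made with RMA in Expression Console 1.1 (their methods also name Microarray Suite 5.0). A second table holds the authors' stage means, p-values and ratios, and was not used. The 224 control probe sets of 30395 were left out, and limma 3.58.1 in R 4.3.3 was fitted to the other 30171 on all 6 arrays with no covariates, with Benjamini-Hochberg adjustment over all of them and a threshold of 0.05. Summaries used pandas 2.3.3 and numpy 2.4.6 in Python 3.11.15, and plots used matplotlib 3.10.9.

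The members and lists were chosen with earlier results of these data known, so no test is given for the members in any comparison, including stage 3 against stage 2, for which one had been planned. Names on the array are cut to a median of 7 letters, so the terms of the pathway list were shortened to match after the names, but not the values, were seen. From each group of names the text gives up to 3 of the largest rises and 2 of the largest falls at stage 3 over stage 1 among those passing the test, and the 5 most alike profiles. Where all stage 1 signals lay within the 60 reporter controls, folds are lower bounds against the brightest of these, while log2 differences are as measured. The array files give no depth, and 2 arrays per stage limit the precision. On simulated data, the fit of stage 3 against stage 2 over 30171 probe sets recovered 0.56 of 50 planted log2 differences of 0.5, 0.8 of those of 1 and all of those of 2. Of its calls, 0.0508 were false. The simulated noise was independent between arrays, whereas deviations of same-numbered arrays correlated in the data, and far fewer changes were planted than were called in the data. In all, 14 alternatives were run. Genomic positions and probe sequences were not used here.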

Additional observations from a re-analysis of the deposited data

How the results depend on the processing

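With 2 arrays per stage, and signals near background for SPX3-like and monogalactosyldiacylglycerol synthase at stage 1, small differences and large folds are imprecise. When 1 array at a time was left out, the members' median ranged from 2.38 to 2.56 for stage 2 minus stage 1 and from 3.88 to 4.0 for stage 3 minus stage 1, and the number of all probe sets lower at stage 2 ranged from 4160 (without stage 1 replicate 2) to 5882, against 6493 with all arrays. It was 4296 without stage 2 replicate 1. Of the 45 pathway names at stage 2 over stage 1, 11 in place of 17 rose without moderation and 10 in place of 6 fell with a trended prior. Over all citrus probe sets these settings gave 4984 rises in place of 6080 and 7355 falls in place of 6493. The difference of Cit.39990.1.S1_s_at for stage 2 minus stage 1, -0.04 and not called, turned to 0.01 with arrays centred on their medians. Over all alternatives, 65 single calls of other named probe sets were lost and 20 gained, among them Cit.7437.1.S1_at (0.49, stage 3 minus stage 1), lost without moderation, without stage 1 replicate 1 and without stage 3 replicate 2, and Cit.13452.1.S1_at (-0.43), lost without moderation and without any 1 array of stage 1 or 3. The causes were not tested.

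The replicate numbers are not said to mark a shared batch. Deviations of same-numbered arrays correlated at 0.463 to 0.561 across probe sets. With the replicate number as a block, 12 in place of 6 pathway names fell at stage 2, and 7492 probe sets were higher and 7613 lower.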
